A study of Sus scrofa with 8 samples.

Results

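Oxidative phosphorylation (OXPHOS) subunits encoded by the nucleus and by the mitochondrial genome were compared between CFTR-knockout and wild-type olfactory epithelium. Members were all rows whose pig gene symbol began with NDUFA, NDUFB, NDUFC, NDUFS, NDUFV, UQCR, COX4 to COX8 or ATP5, or was SDHA, SDHB, SDHC or SDHD. To these were added the protein-coding genes of the mitochondrial chromosome. The rule used names only and no measured value, and it found 102 members among 25880 pig genes. Of these, 89 lay in the nuclear genome and 13 in the mitochondrial genome, and 101 passed the filter on low counts. The nuclear member left out by the filter was COX8H, which had 1 read in knockout piglet 21, 1 in wild-type piglet 5 and 0 in the other libraries. Of the nuclear members, 71 were named through their gene ID and 18 by their position in a RefSeq annotation. Several subunits, among them UQCRB and UQCRH, had no row under the rule and are not analysed here.

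OXPHOS is the chain of inner-membrane complexes that passes electrons to oxygen and uses the resulting proton gradient to make ATP. Complexes I, III and IV and the ATP synthase (complex V) hold subunits of both genomes, whereas complex II is encoded by the nucleus alone. The mitochondrial genes are read as long polycistronic transcripts from each strand and then cut into single RNAs, while the nuclear genes each have a promoter of their own. In the nose, olfactory sensory neurons and the sustentacular cells beside them are the main cell classes of the epithelium.

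The data were bulk mRNA-seq libraries of olfactory epithelium dissected from newborn piglets, made to study the molecular pathology of the loss of smell in cystic fibrosis. The knockout group held 4 CFTR knock-out piglets (numbered 6, 18, 20 and 21), and was set against 4 wild-type piglets (numbered 5, 9, 12 and 23). CFTR is an anion channel of epithelia, and its loss causes cystic fibrosis. No sex, litter or sequencing batch was given in the labels, and each library was a separate animal.

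Library totals ran between 39915150 and 43253395 counts in knockout piglets and between 30836904 and 42281883 in wild-type piglets. CFTR itself had 6.31, 5.24, 7.43 and 8.37 CPM (counts scaled to library size) in knockout piglets, against 56.5, 34.3, 34.0 and 36.6 CPM in wild-type piglets, with no overlap. Its log2 fold change was -2.56 ± 0.21 (SE; p adjusted by edgeR = 0.0121). Marker genes of mature olfactory neurons, 10 of 11 listed, summed to between 5396 and 6327 CPM in knockout piglets and between 3372 and 5326 CPM in wild-type piglets. Sustentacular markers, 5 of 9 listed, summed to between 2385 and 3648 CPM in knockout piglets and between 2706 and 3352 CPM in wild-type piglets. Knockout piglet 18 stood apart. Its bone and stroma markers (8 of 9 listed, none at 0) summed to 45658 CPM, against 1748 to 2644 CPM in the other knockout piglets and 2085 to 5750 CPM in wild-type piglets. In bulk tissue, fewer cells of a type and less RNA per cell cannot be told apart.

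The nuclear and mitochondrial members showed opposite signs in the average of the knockout group, and no member passed the test. Over the 88 nuclear members tested the median log2 fold change of knockout over wild type was -0.16, with 78 negative and 10 positive. Over the 13 mitochondrial members it was 0.30, with 12 positive and 1 negative. Over all 17175 genes tested it was 0.01, with 48.4% negative. The positive mitochondrial values rested on knockout piglet 18: without that library the mitochondrial median was -0.09, with 12 of 13 genes negative, while the nuclear median stayed at -0.16.

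With edgeR's quasi-likelihood test, adjusted over all genes, 0 of 101 members were called, where the background was 0.00582% of all genes, which is CFTR alone. DESeq2 also called 0 members and 1.30% of all genes, 0.792% lower and 0.512% higher. Adjusted p ranged between 0.393 and 0.973 for nuclear members and between 0.486 and 0.934 for mitochondrial members. At an unadjusted p under 0.05, 15 nuclear members (17.05%) passed, all of them with lower values in knockout piglets and 0 with higher values. Among all genes 11.2% passed, 5.80% with lower and 5.40% with higher values. No mitochondrial member passed at that level with all 8 libraries. The count of 15 was 3 without wild-type piglet 9, 5 without knockout piglet 20 or wild-type piglet 23, 24 without wild-type piglet 5 and 26 without wild-type piglet 12. In NDUFS8 and NDUFAF4 every knockout value was below every wild-type value (3.36% of all genes), and in NDUFS1 every knockout value was above (2.45% of all genes).

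Mitochondrial members took 3.59%, 9.09%, 4.66% and 5.35% of the counts in knockout piglets 6, 18, 20 and 21, against 4.95%, 4.60%, 5.11% and 4.84% in wild-type piglets 5, 9, 12 and 23. The wild-type libraries lay close together, and the knockout libraries fell on both sides of them, with piglet 6 the lowest and piglet 18 the highest of all 8. The means were 5.67% ± 2.39 in knockout piglets and 4.87% ± 0.21 in wild-type piglets (SD, n = 4 each), a ratio of 1.16, or 0.930 without piglet 18. Nuclear members summed to 6931, 6499.9, 5875 and 6885 CPM in knockout piglets, against 6738, 7892, 6552 and 7501 CPM in wild-type piglets. The groups overlapped, with wild-type piglets 9 and 23 the highest and knockout piglet 20 the lowest. The sums averaged 6548 ± 489 CPM in knockout piglets and 7171 ± 632 CPM in wild-type piglets (SD, n = 4 each), a ratio of 0.913.

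**Figure D1:**
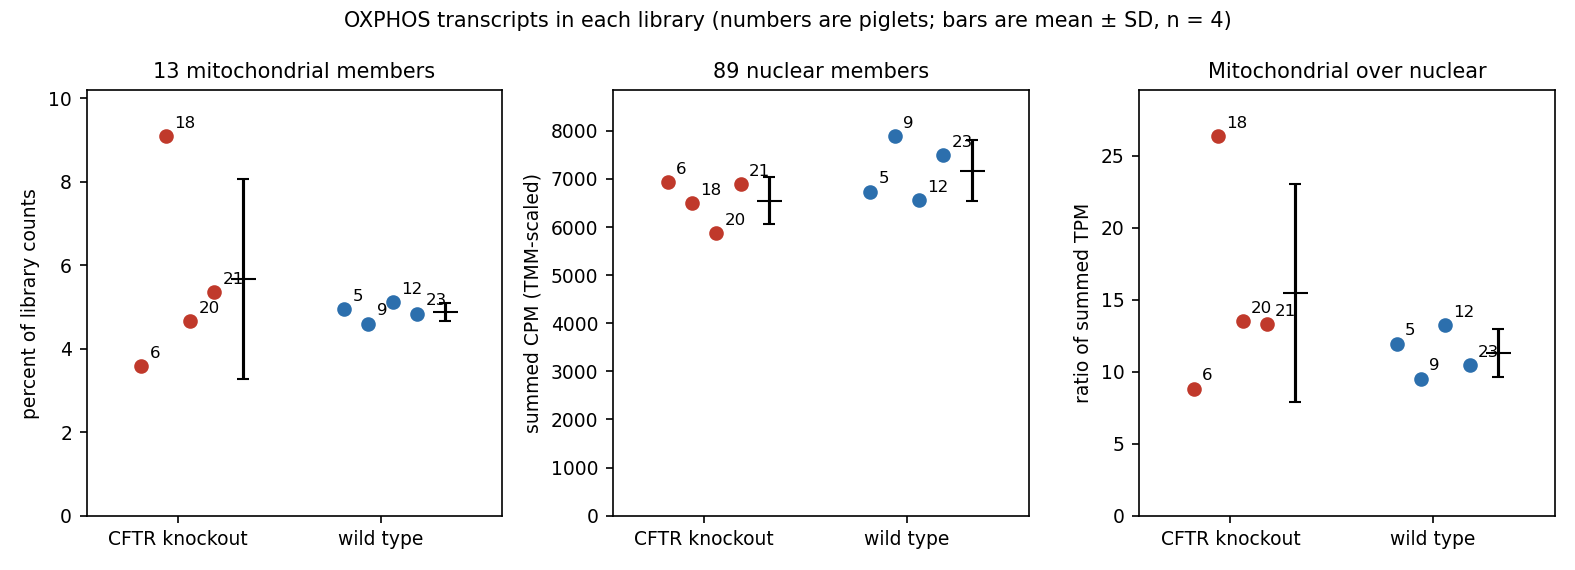
Each point is a library, labelled with its piglet number, and bars give mean ± SD (n = 4 per group). The panels show the share of counts on mitochondrial members (percent), the summed CPM of nuclear members, and the ratio of their summed TPM. Knockout piglet 18 is the highest in the left and right panels (9.09% and 26.4), and knockout piglet 20 the lowest in the middle panel (5875 CPM).

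Levels per length were set by TPM, a count scaled to both gene length and library size, computed from the gene-model lengths in the deposited table. Mitochondrial members summed to 8.82, 26.4, 13.5 and 13.3 times the nuclear members' TPM in knockout piglets, against 11.9, 9.52, 13.2 and 10.4 times in wild-type piglets. The ratio averaged 15.5 ± 7.56 in knockout piglets and 11.3 ± 1.64 in wild-type piglets (SD, n = 4 each), and 11.9 ± 2.64 in the 3 knockout piglets other than 18. Of the 20 genes with the highest mean TPM, 11 were mitochondrial members. COX3, COX1, ATP6 and COX2 led them at 27499, 26723, 23463 and 20886 TPM. The nuclear member with the highest mean TPM was COX4I1, at 735 TPM and rank 110. Nuclear models spanned 334 to 8952 bases with a median of 1833, so a gene with a long merged model has a TPM below that of its usual transcript.

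Within the mitochondrial genome the genes varied together from library to library. Knockout piglet 18 was the highest library for 13 of 13 members and knockout piglet 6 the lowest for 12 of 13. The median log2 deviation from the mean of the 8 libraries was -0.51, 0.999, -0.20 and 0.09 in knockout piglets, against -0.12, -0.16, 0.05 and -0.14 in wild-type piglets. The coefficient of variation over the 8 libraries had a median of 38.4% for mitochondrial members and 11.7% for nuclear members, with 16.97% over all genes tested.

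**Figure D2:**
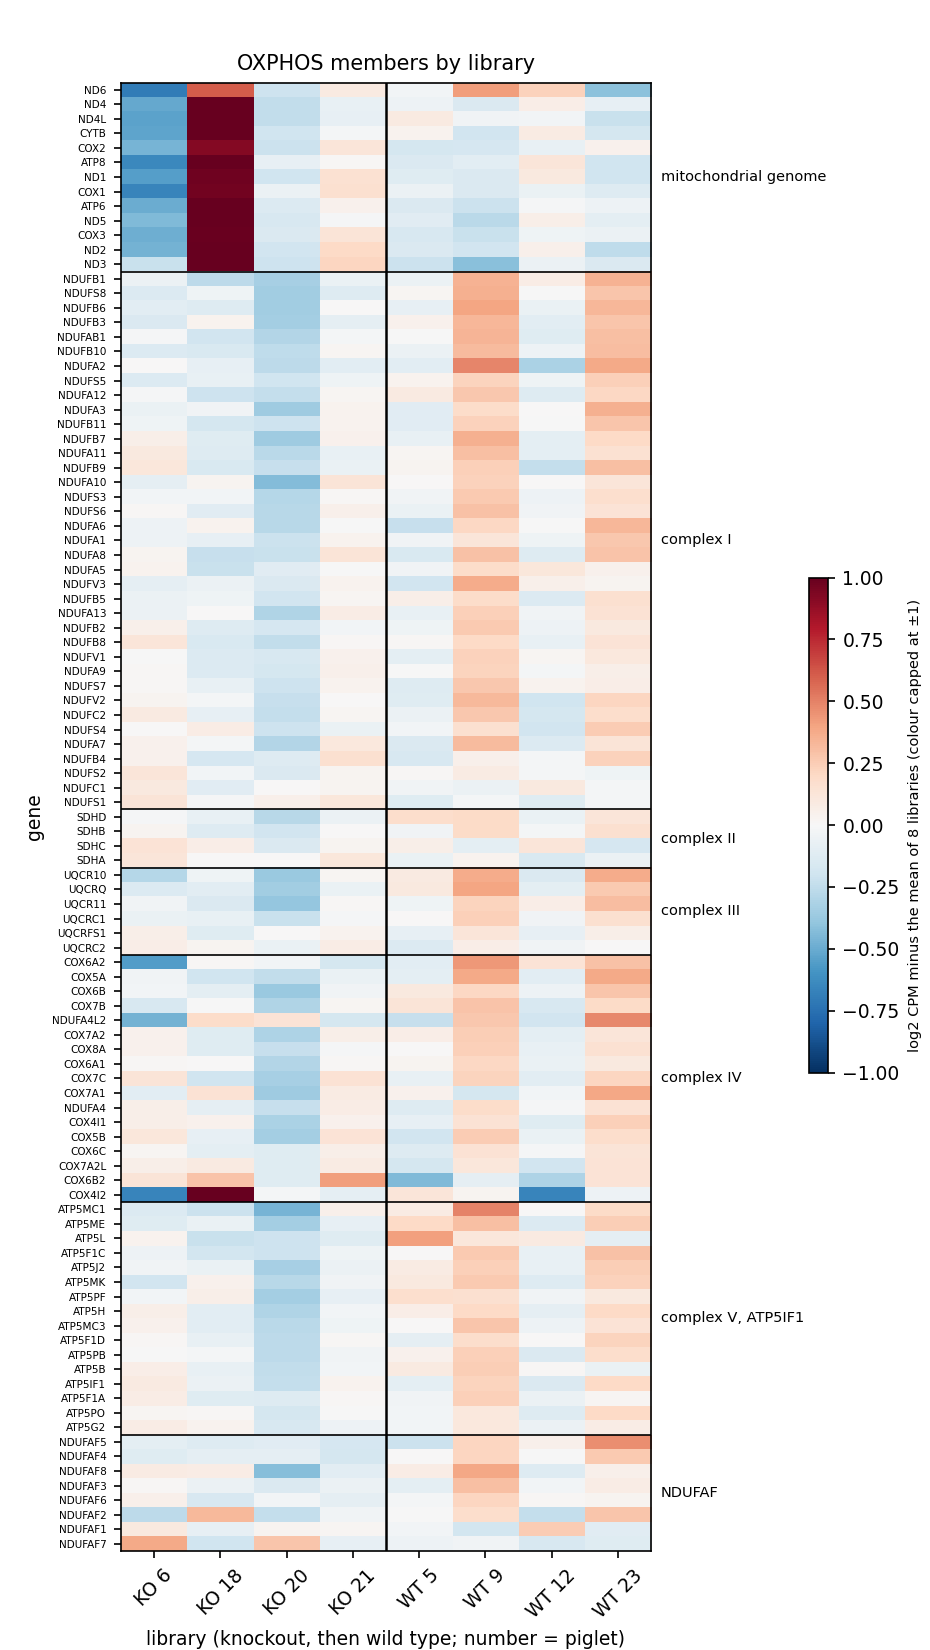
Rows are the 101 members tested, ordered by complex and within it by log2 fold change, and columns are the 4 knockout and then the 4 wild-type libraries. Colour is the log2 CPM minus the gene's mean over 8 libraries, capped at 1 in each direction. Mitochondrial genes stand out in knockout piglets 18 (high) and 6 (low), and most nuclear genes in knockout piglet 20 (low) and wild-type piglets 9 and 23 (high).

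COX1, the catalytic subunit of cytochrome c oxidase (complex IV), had the highest counts of any member. Its values were 8778, 27121, 13311 and 15509 CPM in knockout piglets, against 13335, 12545, 13275 and 12688 CPM in wild-type piglets. The wild-type values were nearly equal, and knockout piglet 18 held 2.09 times their mean. The log2 fold change was 0.32 ± 0.31 (SE; p adjusted by edgeR = 0.673). COX2, which carries the copper site that takes electrons from cytochrome c, had 3519, 9199, 4204 and 5302 CPM in knockout piglets, against 4316, 4341, 4632 and 5019 CPM in wild-type piglets. COX3, the other large core subunit of complex IV, had 5172, 14433, 6589.9 and 7955 CPM in knockout piglets, against 6489, 6232, 7063 and 6982 CPM in wild-type piglets. In both genes knockout piglet 6 was the lowest and knockout piglet 18 the highest library, and the groups overlapped.

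CYTB, the cytochrome b core of complex III, repeated that order. It had 3473, 9997, 4379 and 4944 CPM in knockout piglets, against 5132, 4402, 5316 and 4441 CPM in wild-type piglets. ATP6, which forms part of the proton path of the ATP synthase, had 3824, 10852, 4887 and 5551 CPM in knockout piglets, against 4881, 4642, 5339 and 5189.5 CPM in wild-type piglets. Its small partner ATP8 had 160.2, 516, 238 and 253 CPM in knockout piglets, against 227, 233, 273 and 219 CPM in wild-type piglets. Knockout piglet 18 held 2.07, 2.16 and 2.17 times the wild-type mean of CYTB, ATP6 and ATP8.

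The ND genes encode the membrane arm of complex I. ND4, a proton-pumping subunit, had 3913, 11379, 4697 and 5303 CPM in knockout piglets, against 5382, 5029, 5847 and 5273 CPM in wild-type piglets. ND5, another pumping subunit, had 3214, 8934, 3898 and 4339.7 CPM in knockout piglets, against 4044, 3622, 4534 and 4077 CPM in wild-type piglets. Both were again lowest in knockout piglet 6 and highest in knockout piglet 18. ND2 had 1402, 3895, 1707 and 2238 CPM in knockout piglets, against 1763, 1706, 2023 and 1636 CPM in wild-type piglets. ND1, next to the quinone site, had 489.7, 1404, 626 and 795 CPM in knockout piglets, against 659, 649, 768 and 623 CPM in wild-type piglets. ND4L, which shares a transcript with ND4, had 526, 1596, 642 and 719 CPM in knockout piglets, against 811, 745, 751 and 655 CPM in wild-type piglets. Leaving out knockout piglet 18, the mean of ND4L was 629 ± 97.2 CPM in knockout piglets (SD, n = 3) and 740.4 ± 64.0 CPM in wild-type piglets (SD, n = 4).

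ND3 had the largest log2 fold change of the mitochondrial members, 0.52 ± 0.27 (SE; p adjusted by edgeR = 0.486). It had 654, 1598, 662 and 887 CPM in knockout piglets, against 660, 573, 733 and 693 CPM in wild-type piglets. Unlike the other 12, it was lowest in wild-type piglet 9 and kept a positive log2 fold change, 0.14, without knockout piglet 18. ND6 is the only member on the minus strand of the mitochondrial chromosome. It had 86.1, 212, 121 and 148 CPM in knockout piglets, against 137, 186, 164 and 105 CPM in wild-type piglets, a log2 fold change of -0.06 ± 0.27 (SE; p adjusted by edgeR = 0.934). Its reads came to 2.68%, 2.37%, 3.09% and 3.42% of those of ND5 in knockout piglets, against 3.39%, 5.14%, 3.61% and 2.58% in wild-type piglets. These ranges overlapped, and wild-type piglet 9 had the highest share. ND6 in knockout piglet 18 was 1.43 times the wild-type mean, where the other 12 genes were between 2.01 and 2.404 times theirs.

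Neighbouring mitochondrial genes overlap in the deposited annotation, by 43 bases between ATP8 and ATP6, 7 between ND4L and ND4, 1 between ATP6 and COX3 and 17 between ND5 and ND6, the last on opposite strands. The sources used here do not give the strand setting of the counting, and copies of mitochondrial sequence in the nuclear genome can share reads with them, so ND6, ATP8 and ND4L are the least certain. The 2 long unnamed genes that precede ND1, at positions 1246 to 2205 and 2274 to 3844 of the mitochondrial chromosome (build not stated in the sources), are no members and lie where the ribosomal RNAs do. They summed to 132, 331, 142 and 247 CPM in knockout piglets, against 209, 165, 377 and 293 CPM in wild-type piglets. Their highest library was wild-type piglet 12, with knockout piglet 18 next and the highest of its group. Knockout piglet 6 was the lowest of all 8 libraries.

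Several other measures set knockout piglet 18 apart together with its mitochondrial reads. Its leukocyte markers, 8 of 8 listed, summed to 209.6 CPM, against 25.2 to 42.3 CPM in the other knockout piglets and 31.4 to 50.7 CPM in wild-type piglets. CSF1R and CD68 made up most of that sum, at 106 and 68.8 CPM in piglet 18. PTPRC, AIF1 and S100A9 were also highest in piglet 18, but the rest of the list was not. S100A8 had 1.98 CPM there and 3.56 CPM in wild-type piglet 5. CD79A had 3.73 CPM there and 4.27 CPM in wild-type piglet 9. CD3E had 0.139 CPM there and 0.182 CPM in knockout piglet 20. Blood cell markers, 6 of 6 listed, summed to 296 CPM in piglet 18, against 77.4 to 136 CPM in the other knockout piglets and 34.7 to 119 CPM in wild-type piglets. The bone gene IBSP, encoding bone sialoprotein, had 1838 CPM in piglet 18, against 1.32 to 3.71 CPM in the other knockout piglets and 1.15 to 117 CPM in wild-type piglets. In knockout piglet 6, the lowest library for the mitochondrial genes, the bone and leukocyte sums were also the lowest of all 8, at 1748 and 25.2 CPM. Its blood cell sum, 77.4 CPM, was above those of wild-type piglets 9 and 12 (43.9 and 34.7 CPM). Wild-type piglets 9 and 5 had bone sums of 5750 and 4828 CPM, with median mitochondrial deviations of -0.16 and -0.12. Wild-type piglet 12 had a bone sum of 2085 CPM and a deviation of 0.05. The part of these cells in the mitochondrial values was not tested.

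Complex I takes electrons from NADH, and its nuclear members were the largest group. Of 37 tested, 35 were negative, the median log2 fold change was -0.16, 5 passed an unadjusted p of 0.05 and none was called. The median was -0.12 for the 7 core subunits that carry the redox centres and -0.16 for the 30 accessory subunits. NDUFS8, an iron-sulfur core subunit (ENSSSCG00000037455, chromosome 2, 4862487 to 4885860, minus strand), had 41.6, 44.5, 35.9 and 41.8 CPM in knockout piglets, against 46.4, 58.5, 45.7 and 55.5 CPM in wild-type piglets. All knockout values were below all wild-type values, though knockout piglet 18 and wild-type piglet 12 were close. The means were 41.0 ± 3.60 CPM in knockout piglets and 51.5 ± 6.46 CPM in wild-type piglets (SD, n = 4 each), and the log2 fold change was -0.33 ± 0.11 (SE; p adjusted by edgeR = 0.393).

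NDUFB1, an accessory subunit of the membrane arm (ENSSSCG00000002449, chromosome 7, 113652774 to 113659672, minus strand), had 26.3, 22.8, 21.7 and 26.0 CPM in knockout piglets, against 26.2, 34.7, 28.8 and 34.8 CPM in wild-type piglets. The groups met only at knockout piglet 6 and wild-type piglet 5, and the log2 fold change was -0.36 ± 0.12 (SE; p adjusted by edgeR = 0.402). NDUFS5, another accessory subunit, had 57.4, 59.8, 54.9 and 61.2 CPM in knockout piglets, against 64.4, 73.6, 61.1 and 74.1 CPM in wild-type piglets. Here knockout piglet 21 was just above wild-type piglet 12, and the log2 fold change was -0.23 ± 0.08 (SE; p adjusted by edgeR = 0.409). NDUFB9, the nuclear complex I member with the highest level per length (312 TPM), had 79.0, 65.7, 62.2 and 69.6 CPM in knockout piglets, against 74.5, 85.7, 61.8 and 89.7 CPM in wild-type piglets, with full overlap.

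The 2 positive values in complex I were NDUFC1, at 0.01, and NDUFS1, the largest iron-sulfur subunit. NDUFS1 (ENSSSCG00000016127, chromosome 15, 109409768 to 109452435, minus strand) had 116, 105, 109.8 and 115 CPM in knockout piglets, against 97.5, 105, 97.7 and 105 CPM in wild-type piglets. Each knockout value exceeded each wild-type value, knockout piglet 18 (105.4 CPM) by little over wild-type piglet 9 (105.0 CPM). The means were 112 ± 5.06 CPM in knockout piglets and 101 ± 4.15 CPM in wild-type piglets (SD, n = 4 each), with a log2 fold change of 0.14 ± 0.07 (SE; p adjusted by edgeR = 0.449). NDUFS1 was described here because its groups did not overlap, which was seen in its values.

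Complex II, succinate dehydrogenase, oxidises succinate in the TCA cycle and has no mitochondrial gene. Its 4 members were split, with 2 negative and 2 positive, a median of -0.05 and none called. SDHA, the flavoprotein, had 136, 125, 125 and 134 CPM in knockout piglets, against 119, 127, 112 and 119 CPM in wild-type piglets, and a log2 fold change of 0.12 ± 0.07 (SE; p adjusted by edgeR = 0.505). SDHC, a membrane anchor, had 87.7, 83.5, 72.1 and 81.2 CPM in knockout piglets, against 82.7, 74.3, 86.8 and 70.8 CPM in wild-type piglets. Both genes overlapped between the groups, SDHA only through wild-type piglet 9. SDHB, the iron-sulfur subunit, had 83.6, 75.2, 71.8 and 82.3 CPM in knockout piglets, against 80.1, 93.7, 81.0 and 91.6 CPM in wild-type piglets. SDHD, the other anchor, had 81.5, 78.3, 67.9 and 79.1 CPM in knockout piglets, against 93.0, 94.2, 78.8 and 89.4 CPM in wild-type piglets. SDHD was the furthest apart of the 4, at -0.21 ± 0.09 (SE; p adjusted by edgeR = 0.425), and wild-type piglet 12 was its overlap.

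Complex III passes electrons from ubiquinol to cytochrome c. Of its 6 nuclear members 5 were negative, with a median of -0.23 and none called, and the 3 small subunits UQCRQ, UQCR10 and UQCR11 each had an unadjusted p under 0.05. UQCRQ, which binds near the quinone pocket (ENSSSCG00000014289, chromosome 2, 135186454 to 135188293, plus strand), had 48.2, 49.5, 41.9 and 50.7 CPM in knockout piglets, against 57.0, 70.015, 49.7 and 63.7 CPM in wild-type piglets. Wild-type piglet 12 fell inside the knockout range, and the log2 fold change was -0.34 ± 0.12 (SE; p adjusted by edgeR = 0.405). UQCR10, the nuclear complex III member with the highest level per length (211 TPM), had 30.2, 35.6, 28.3 and 37.3 CPM in knockout piglets, against 39.1, 47.4, 33.3 and 47.4 CPM in wild-type piglets. UQCR11 had 23.7, 22.0, 18.6 and 24.6 CPM in knockout piglets, against 23.7, 28.5, 25.6 and 30.3 CPM in wild-type piglets. Among the large subunits, UQCRFS1, the Rieske iron-sulfur protein, had a log2 fold change of -0.01 and UQCRC2, a core protein, 0.05.

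Cytochrome c and the cytochrome c1 subunit that reduces it fall outside the naming rule. CYC1 had 92.5, 92.9, 76.9 and 94.5 CPM in knockout piglets, against 94.2, 139.7, 99.8 and 109.8 CPM in wild-type piglets. CYCS had 139, 116, 119.8 and 139 CPM in knockout piglets, against 131, 197, 142 and 172 CPM in wild-type piglets. Their log2 fold changes were -0.31 and -0.32, with edgeR adjusted p of 0.426 and 0.433.

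Complex IV had 18 nuclear members, 17 of them tested, with 14 negative, a median of -0.12 and none called. COX6B, which faces the intermembrane space (named by position; ENSSSCG00000002907, chromosome 6, 45091285 to 45102669, plus strand), had 91.2, 87.2, 72.02 and 91.0 CPM in knockout piglets, against 99.8, 108, 90.2 and 113 CPM in wild-type piglets. Only wild-type piglet 12 reached the knockout values, and the log2 fold change was -0.27 ± 0.10 (SE; p adjusted by edgeR = 0.413). COX5A, a matrix-side subunit, had 86.6, 77.3, 74.9 and 84.9 CPM in knockout piglets, against 83.1, 116, 82.7 and 116 CPM in wild-type piglets. Wild-type piglets 9 and 23 alone were above the knockout range, and the log2 fold change was -0.29 ± 0.13 (SE; p adjusted by edgeR = 0.448). COX4I1, the common form of subunit 4, had 201, 199, 155 and 199 CPM in knockout piglets, against 182, 214, 178 and 227 CPM in wild-type piglets. Knockout piglets 6, 18 and 21 were nearly equal and lay inside the wild-type range, and only knockout piglet 20 was below it.

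Complex IV has alternative forms of several subunits that differ between tissues. COX4I2, the form of subunit 4 known from lung and from cells that sense oxygen, had 4.80, 19.1, 7.52 and 7.14 CPM in knockout piglets, against 8.29, 7.75, 4.79 and 7.35 CPM in wild-type piglets. Knockout piglet 18 was far above every other library, and the remaining 3 knockout piglets lay in the wild-type range. The log2 fold change was the largest of the nuclear members, 0.45 ± 0.40 (SE; p adjusted by edgeR = 0.652), and was -0.12 without piglet 18. COX4I2 made up 2.70%, 10.02%, 5.34% and 4.01% of the summed TPM of COX4I1 and COX4I2 in knockout piglets, against 5.03%, 4.04%, 3.03% and 3.62% in wild-type piglets. Endothelial and pericyte markers, 7 of 8 listed, summed to between 362 and 474 CPM in knockout piglets, with piglet 18 at 474, and between 342 and 607 CPM in wild-type piglets. Of these, the pericyte marker CSPG4 was highest in piglet 18, at 9.25 CPM, against 1.98 to 3.37 CPM in the other knockout piglets and 2.15 to 4.02 CPM in wild-type piglets. Other genes of that list were not highest there. RGS5 had 59.5 CPM in piglet 18 and 100 CPM in wild-type piglet 5, and PDGFRB had 103 and 105 CPM. NOTCH3 had 78.1 CPM in piglet 18 and 105 CPM in knockout piglet 6. The part of such cells in the COX4I2 values was not tested.

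COX6A2, the heart and muscle form of subunit 6A (ENSSSCG00000036789, chromosome 3, 17113357 to 17135104, plus strand), had 14.7, 21.8, 21.2 and 19.2 CPM in knockout piglets, against 20.1, 29.3, 23.8 and 26.6 CPM in wild-type piglets. Its log2 fold change was -0.38 ± 0.16 (SE; p adjusted by edgeR = 0.431), with wild-type piglet 5 inside the knockout range. It supplied 21.7% ± 4.08 of the TPM of subunit 6A in knockout piglets and 24.5% ± 2.10 in wild-type piglets (SD, n = 4 each). That share depends on the gene-model lengths, 2724 bases for COX6A2 and 4893 for COX6A1. Their mean CPM over the 8 libraries were 22.1 and 131. Striated muscle markers, 8 of 13 listed, summed to between 129.5 and 156 CPM in knockout piglets and between 90.7 and 163 CPM in wild-type piglets. ACTA1, encoding skeletal actin, made up most of that sum, and CKM, the muscle creatine kinase, was at 0 to 0.319 CPM in knockout piglets and at 0.0721 to 0.209 CPM in wild-type piglets. COX6A1, the common form, had 132, 131, 106 and 132 CPM in knockout piglets, against 133, 151, 125 and 139.7 CPM in wild-type piglets.

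COX6B2, the form of subunit 6B known from testis, was rare. It had 2.78, 3.09, 2.32 and 3.40 CPM in knockout piglets, against 1.85, 2.37, 2.03 and 2.79 CPM in wild-type piglets, with a log2 fold change of 0.36 ± 0.22 (SE; p adjusted by edgeR = 0.528). The CPM ranges overlapped, but its share of the TPM of COX6B and COX6B2 did not. That share was 3.47%, 4.02%, 3.67% and 4.23% in knockout piglets, against 2.14%, 2.54%, 2.59% and 2.84% in wild-type piglets. It averaged 3.85% ± 0.34 in knockout piglets and 2.53% ± 0.29 in wild-type piglets (SD, n = 4 each), given as a description of 1 of 5 isoform shares. The heart and muscle form COX7A1 supplied 3.07% ± 0.38 of the TPM of COX7A1 and COX7A2 in knockout piglets and 2.99% ± 0.56 in wild-type piglets. NDUFA4L2, a relative of the complex IV subunit NDUFA4 that is known to respond to low oxygen, supplied 0.485% ± 0.14 of their joint TPM in knockout piglets and 0.498% ± 0.08 in wild-type piglets (SD, n = 4 each). The level of these shares depends on unequal gene-model lengths. They were 6228 bases for NDUFA4L2 and 605 for NDUFA4, and 2324 for COX7A1 and 545 for COX7A2. Log2 fold changes were -0.12 for COX7A1, -0.16 for COX7A2, 0.05 for COX7A2L, which joins complexes III and IV, -0.16 for COX8A, -0.09 for NDUFA4 and -0.17 for NDUFA4L2. The smallest p adjusted by edgeR among these was 0.510, for COX8A.

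Complex V makes ATP, and log2 fold changes of its nuclear members were negative in 15 of 15, the median was -0.19 and none was called. ATP5MC1 encodes a copy of the c subunit of the rotor ring (ENSSSCG00000017544, chromosome 12, 25110747 to 25114005, plus strand). It had 50.8, 48.1, 40.4 and 58.1 CPM in knockout piglets, against 59.2, 78.8, 56.0 and 63.8 CPM in wild-type piglets. Knockout piglet 21 was above wild-type piglet 12, and the log2 fold change was the lowest of all members, -0.39 ± 0.14 (SE; p adjusted by edgeR = 0.407). The other genes for the same c subunit, ATP5G2 (named by position) and ATP5MC3, had log2 fold changes of -0.05 and -0.19, and near-identical copies can exchange reads. ATP5ME, a small membrane subunit, had 42.8, 44.6, 36.9 and 43.9 CPM in knockout piglets, against 53.4, 57.5, 42.4 and 55.2 CPM in wild-type piglets. ATP5F1C, the central stalk subunit gamma, had 144, 132, 129.6 and 145 CPM in knockout piglets, against 150.1, 179.6, 143 and 183 CPM in wild-type piglets. In both, wild-type piglet 12 was the single wild-type library inside the knockout range, and the log2 fold changes were -0.31 and -0.25.

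The catalytic subunits were further from any difference. ATP5F1A, the alpha subunit, had a log2 fold change of -0.08 and ATP5B, the beta subunit (named by position), -0.14. ATP5PO, in the peripheral stalk and the nuclear complex V member with the highest level per length (500 TPM), had 137, 135, 119 and 134 CPM in knockout piglets, against 132, 145, 123 and 155 CPM in wild-type piglets. ATP5IF1, the inhibitor that blocks ATP hydrolysis, had a log2 fold change of -0.09 (p adjusted by edgeR = 0.743).

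The rule also took in 8 NDUFAF genes, which encode assembly factors of complex I and not subunits. Of these 6 were negative, with a median of -0.12 and none called. NDUFAF4 had 9.29, 9.50, 9.52 and 8.94 CPM in knockout piglets, against 10.2, 11.7, 10.1 and 12.2 CPM in wild-type piglets, and all knockout values were below all wild-type values. Its knockout values lay close together, at 9.31 ± 0.27 CPM, against 11.04 ± 1.07 CPM in wild-type piglets (SD, n = 4 each), and the log2 fold change was -0.24 ± 0.12 (SE; p adjusted by edgeR = 0.460). NDUFAF5 had 7.13, 6.99, 7.06 and 6.79 CPM in knockout piglets, against 6.59, 8.86, 7.90 and 10.6 CPM in wild-type piglets. NDUFAF3 had a log2 fold change of -0.13. Leaving the assembly factors and ATP5IF1 out of the nuclear list gave a median of -0.16.

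**Figure D3:**
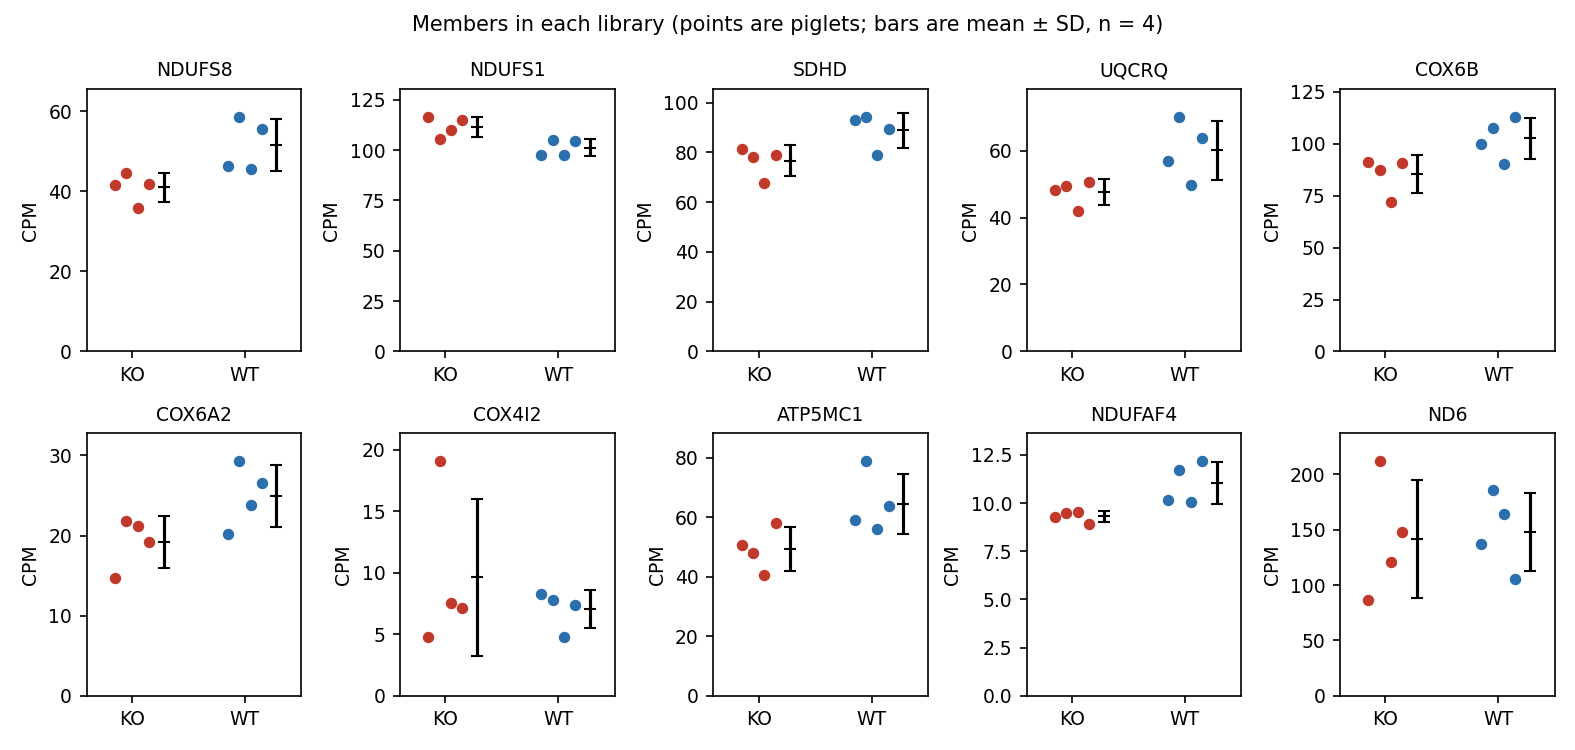
Each panel shows CPM in the 4 knockout (left) and 4 wild-type (right) libraries of a member, with mean ± SD beside the points. Knockout values are separate from wild-type values in NDUFS8, NDUFS1 and NDUFAF4, and knockout piglet 18 stands alone at 19.1 CPM in COX4I2.

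**Figure D4:**
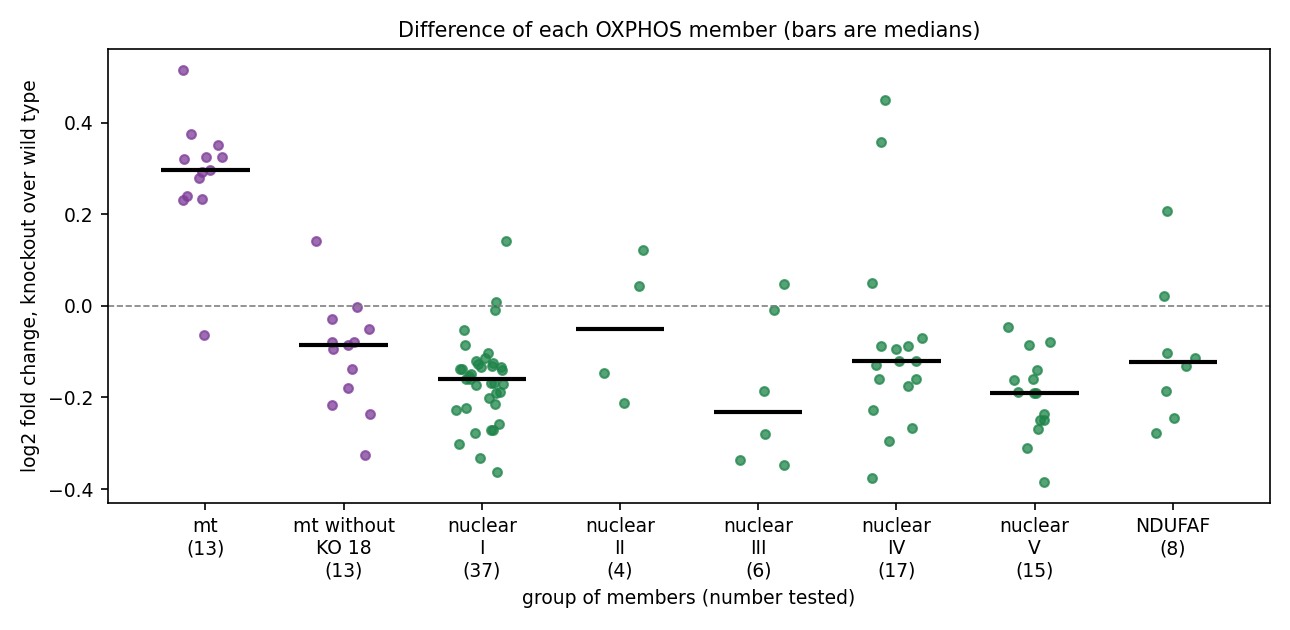
Points are the log2 fold changes of knockout over wild type of single members and bars their medians, for mitochondrial members with all libraries (0.30) and without knockout piglet 18 (-0.09), and for nuclear members by complex. ATP5IF1 is not drawn. The nuclear groups have medians between -0.23 (complex III) and -0.05 (complex II).

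Most nuclear members followed a common profile over the 8 libraries. The median log2 deviation of the 88 tested was 0.01, -0.08, -0.24 and 0.01 in knockout piglets, against -0.03, 0.23, -0.06 and 0.17 in wild-type piglets. Knockout piglet 20 was the lowest library for 63 of them (71.6%, against 13.6% of all genes tested), and wild-type piglet 9 the highest for 51 (58.0%, against 14.7%). The outer libraries were wild-type piglets 9 and 23 at the upper end and knockout piglet 20 at the lower, while the other 5 libraries lay between -0.08 and 0.01. Of the 88, 76 had a Pearson r over 0.5 with the mean log2 CPM of the nuclear members over 8 libraries, a mean that includes each gene itself, and r had a median of 0.892 and a lowest value of -0.61. These r pool both genotypes. The genes outside the list nearest to that mean were TOMM22, the import receptor of the outer membrane (r = 0.992), and MRPL23, a mitochondrial ribosomal protein named by position (r = 0.990). TOMM22 had 136, 132, 119.8 and 138 CPM in knockout piglets, against 136, 167, 130.3 and 156 CPM in wild-type piglets.

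Transcript length moved with the same libraries. Among genes of at least 20 CPM that are no members, those with models up to 1000 bases had a median deviation of -0.17 in knockout piglet 20, against 0.10 and 0.13 in wild-type piglets 9 and 23. Those over 5000 bases had 0.06 in knockout piglet 20, against -0.05 and -0.06 in wild-type piglets 9 and 23. The corresponding nuclear members had -0.29 and -0.21 in knockout piglet 20, against 0.24 and 0.24 in wild-type piglet 9 for the short and the long class. Median log2 fold changes were -0.19 for the 25 nuclear members up to 1000 bases and -0.15 for the 10 over 5000 bases, against -0.05 and 0.04 for the other genes of those classes. The part of length in the nuclear values was not tested further.

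Other genes of the mitochondrion were read from lists of known function, and none was called in any list. Proteins of the mitochondrial ribosome, which translates the 13 mitochondrial messages, gave a median log2 fold change of -0.17 over 72 genes, with 67 negative. Of these 20 (27.8%) had an unadjusted p under 0.05, all with lower values, and in 14 every knockout value was below every wild-type value, beside backgrounds of 5.80% and 3.36%. MRPL55 had 26.5, 27.8, 25.7 and 27.5 CPM in knockout piglets, against 33.5, 37.9, 29.8 and 37.7 CPM in wild-type piglets, a log2 fold change of -0.37 ± 0.10 (SE; p adjusted by edgeR = 0.344). MRPS5 had 31.0, 28.8, 27.98 and 29.7 CPM in knockout piglets, against 35.7, 39.5, 32.5 and 37.2 CPM in wild-type piglets. Both were free of overlap between the groups.

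Of factors that copy, transcribe and process mitochondrial DNA, 20 of 22 listed were tested, with 11 negative and a median of -0.02. SLIRP, which stabilises mitochondrial mRNAs, had a log2 fold change of -0.35 ± 0.14 (SE; p adjusted by edgeR = 0.424) and PNPT1, an RNA-degrading enzyme, -0.19. Of the assembly factors that the rule left out, 32 of 41 were tested, with 21 negative and a median of -0.06. COX17, the copper chaperone of complex IV, had 19.9, 20.03, 19.0 and 23.2 CPM in knockout piglets, against 29.6, 29.0, 22.8 and 32.7 CPM in wild-type piglets, a log2 fold change of -0.47 ± 0.12 (SE; p adjusted by edgeR = 0.344). Its groups overlapped only at knockout piglet 21 and wild-type piglet 12. UQCC2, an assembly factor of complex III, had a log2 fold change of -0.36.

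Regulators of mitochondrial biogenesis, 11 tested, had a median of 0.00, with PPRC1 and PPARGC1A on opposite sides. PPRC1, a coactivator related to PGC-1, had 32.2, 32.5, 35.2 and 32.6 CPM in knockout piglets, against 38.6, 61.6, 42.2 and 45.8 CPM in wild-type piglets, and a log2 fold change of -0.51 ± 0.14 (SE; p adjusted by edgeR = 0.353). PPARGC1A, which encodes PGC-1 alpha, had 47.9, 42.2, 44.2 and 43.7 CPM in knockout piglets, against 33.6, 34.6, 43.3 and 34.9 CPM in wild-type piglets, and 0.28 ± 0.10 (SE; p adjusted by edgeR = 0.406). PPRC1 was lower in every knockout library, and PPARGC1A overlapped through wild-type piglet 12.

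The TCA cycle list had 12 of 18 negative and a median of -0.10. DLAT of pyruvate dehydrogenase and SUCLA2 of succinyl-CoA ligase, named for the smallest p of the list, had log2 fold changes of -0.21 and -0.17. Each had all knockout values below all wild-type values, as had 3 of the 18 genes of the list and 3.36% of all genes. Carriers and outer-membrane proteins, 20 of 22 tested, had a median of -0.11. Its leading genes were the matrix chaperonin pair, HSPE1 and HSPD1. HSPE1 had 54.8, 70.05, 49.8 and 59.5 CPM in knockout piglets, against 96.6, 115, 61.1 and 113 CPM in wild-type piglets. HSPD1 had 175, 208, 174 and 181 CPM in knockout piglets, against 254, 294, 197 and 281 CPM in wild-type piglets. Their log2 fold changes were -0.72 and -0.47 (p adjusted by edgeR = 0.349 and 0.353), and wild-type piglet 12 was the overlap in both.

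Glycolysis genes had 12 of 18 positive values, a median of 0.05 and none called. The neuronal glucose transporter SLC2A3 (named by position) had 37.0, 76.8, 61.1 and 49.8 CPM in knockout piglets, against 31.2, 33.2, 28.04 and 34.9 CPM in wild-type piglets, a log2 fold change of 0.82 ± 0.20 (SE; p adjusted by edgeR = 0.334). LDHB, a lactate dehydrogenase subunit, had 26.2, 37.5, 40.8 and 40.9 CPM in knockout piglets, against 7.40, 6.96, 22.7 and 30.1 CPM in wild-type piglets. SLC2A3 had every knockout value above every wild-type value (1 of 18 genes of the list, 2.45% of all genes). LDHB overlapped through knockout piglet 6 and wild-type piglet 23. In the low-oxygen and stress list, 16 of 17 tested, the median was 0.12. Its smallest unadjusted p values were those of PDK1, the kinase that restrains pyruvate dehydrogenase, at a log2 fold change of 0.24, and of CHAC1, a stress-response gene, at 0.65. Mature olfactory neuron markers had 10 of 10 positive log2 fold changes with a median of 0.36, and their part in these values was not tested. Sustentacular markers had 3 of 5 negative and a median of -0.39, with none called. KRT8, an epithelial keratin, had 621, 485, 543 and 576 CPM in knockout piglets, against 687, 862, 541 and 899 CPM in wild-type piglets. Its partner KRT18 had 249.7, 198, 224 and 263 CPM in knockout piglets, against 291, 395, 212 and 443 CPM in wild-type piglets. Both were highest in wild-type piglets 9 and 23, as were most nuclear members, and their log2 fold changes were -0.43 and -0.52 (p adjusted by edgeR = 0.415 and 0.425). They were named for the smallest p of the list, and its other tested genes had other profiles. CBR2 was highest in knockout piglet 6 (2269 CPM). ERMN and CYP1A2 were highest in wild-type piglet 12 (207 and 461 CPM), and ERMN was lowest in wild-type piglet 9 (66.1 CPM). The part of these cells in the nuclear values was not tested.

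**Figure D5:**
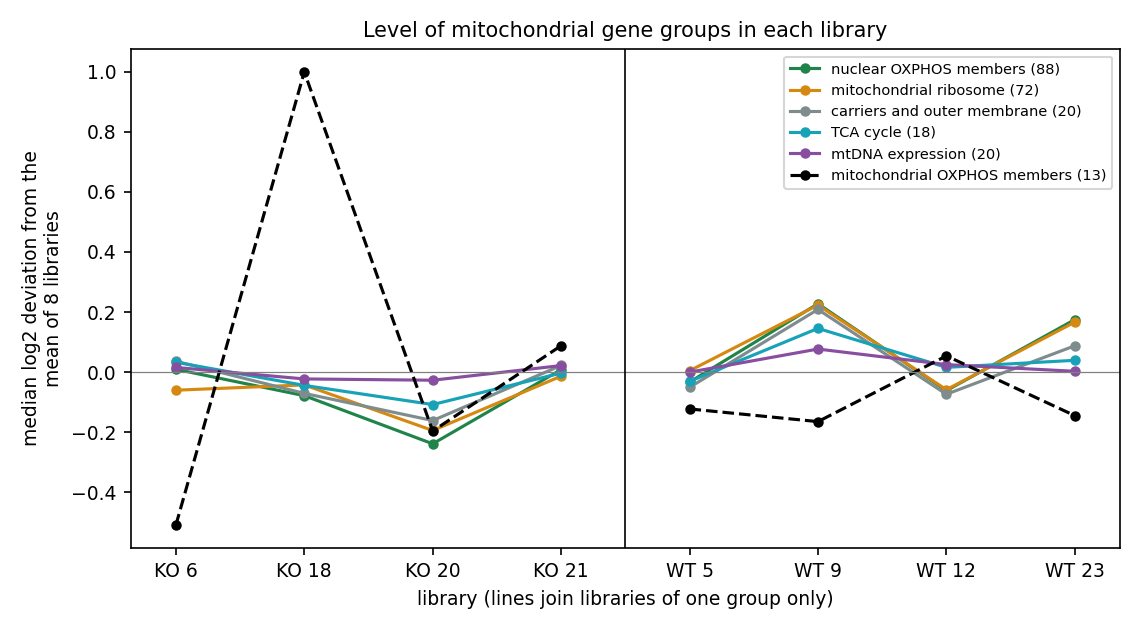
Lines give the median log2 deviation from the mean of 8 libraries of each gene group, for 4 knockout (left) and 4 wild-type (right) libraries, with the number of genes tested in brackets. Nuclear OXPHOS members and the mitochondrial ribosome share a low in knockout piglet 20 (-0.24 and -0.19) and a high in wild-type piglet 9 (0.23 and 0.22), while mitochondrial OXPHOS members peak in knockout piglet 18 (0.999).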

How the data were processed

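The deposited table gave raw counts for each gene in 8 libraries, in the layout of featureCounts per the file headers. Tools in the submitters' processing notes, listed without roles, were HTSeq, featureCounts of Subread 1.5.0-p3, STAR 2.4.0, DESeq2 and FastQC. The genome build and the strand setting are not given in the sources used here. Per the labels, RNA was purified on columns with DNase and libraries were made with a TruSeq RNA kit. The labels speak of mRNA, and how it was selected, which bears on mitochondrial levels, is not stated there.

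Library sizes used 25880 pig genes, and 5988 other identifiers with 94 to 727 reads per library were left out. Symbols came from gene IDs (14857) or from RefSeq gene positions on Sscrofa11.1 overlapping by at least 50% of both spans (1364), which gave 94.5% of 12601 known genes their own symbol. The test was quasi-likelihood edgeR (4.0.16, R 4.3.3), with TMM scaling, the default low-count filter, genotype as the factor and Benjamini-Hochberg adjustment at 0.05 over 17175 genes. The biological coefficient of variation was 26.5%. CPM were TMM-scaled, and standard errors came from the F statistic. The fit was tested on simulated data. Alternatives included DESeq2 1.42.0 and limma 3.58.1.

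Members and lists were chosen with earlier results of these data known. Named were all mitochondrial and SDH members, in complexes I, III, IV and V the 3 smallest p and the highest TPM, 3 NDUFAF genes, isoform pairs, up to 2 genes per list and the 2 genes nearest to the nuclear mean.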

Additional observations from a re-analysis of the deposited data

Results flagged for a closer look

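Sets of 4 libraries, 106 in all, were examined for a library far from the others of its group. They were not independent, since most nuclear members varied together, so the count of marked sets cannot be read against chance. At 1 in 20, independent sets would give about as many as the 5 that were marked. In 4 of them knockout piglet 20 was the low library: COX4I1 at 155 CPM, against 199 to 201 CPM in the other knockout piglets, COX6A1 at 106 CPM, against 131 to 132 CPM, ATP5PO at 119 CPM, against 134 to 137 CPM, and COX7A2L at 92.4 CPM, against 105 to 107 CPM. The 5th was the share of COX6A2 in subunit 6A, which was 21.4% in wild-type piglet 5 and between 25.5% and 25.8% in the other wild-type piglets.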

How the results depend on the processing

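No paired analysis was possible because the labels give no litter or other link between knockout and wild-type piglets. No member was called under any of the 18 alternatives. The 15 members with an unadjusted p under 0.05 became 25 with library sizes only, 30 with limma, 5 with Y-linked reads as a covariate, and 3 to 26 with a library left out. With a library left out, the nuclear median ran between -0.21 and -0.10, the mitochondrial median between -0.09 and 0.49, the ratio of mitochondrial percent between 0.930 and 1.31, of nuclear CPM between 0.884 and 0.945 and of their TPM ratio between 1.05 and 1.57. Of 44 named members, 16 changed sign in at least 1 alternative, none of them with a called value, and the cause was not tested. The log2 fold changes that changed sign were -0.010 (COX7A2L) and -0.014 (SDHC) with library sizes only, -0.011 (COX7A2L), -0.0092 (ND4L), -0.0049 (ND4) with limma and 0.23 (ND6) with the Y-linked covariate. Without knockout piglet 18 and wild-type piglet 5 they were -0.027 (COX7A2L), -0.037 (COX4I2), -0.10 (ND1), -0.012 (ND2), -0.043 (COX1), -0.11 (COX2), -0.16 (ATP8), -0.10 (ATP6), -0.048 (COX3), -0.20 (ND4L), -0.22 (ND4), -0.10 (ND5), -0.15 (CYTB). Leaving out single libraries, the lowest and highest log2 fold changes were -0.079 and 0.50 for ATP6, -0.14 and 0.50 for ATP8, -0.051 and 0.52 for COX1, -0.079 and 0.45 for COX2, -0.029 and 0.53 for COX3, -0.12 and 0.67 for COX4I2, -0.19 and 0.0041 for COX7A1, -0.010 and 0.11 for COX7A2L, -0.18 and 0.42 for CYTB, -0.086 and 0.48 for ND1, -0.002 and 0.55 for ND2, -0.22 and 0.40 for ND4, -0.24 and 0.41 for ND4L, -0.095 and 0.49 for ND5, -0.33 and 0.11 for ND6, -0.0031 and 0.10 for SDHC. With 4 animals a group, a p that misses the threshold does not show that the groups are alike.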
